A study of Mus musculus with 6 samples.

Results

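The monocarboxylate transporters are membrane proteins of the SLC16 family that carry lactate, pyruvate, ketone bodies and other small molecules into and out of cells. In the brain, lactate released by glia and taken up by neurons passes through MCT1, MCT2 and MCT4, the products of Slc16a1, Slc16a7 and Slc16a3, and other members carry thyroid hormone, aromatic amino acids or carnitine, or have no settled substrate. Expression of 9 of these genes, Slc16a1, Slc16a3, Slc16a6, Slc16a7, Slc16a9, Slc16a10, Slc16a11, Slc16a13 and Slc16a14, was read by gene symbol from the count tables of cultured mouse cerebellar granule neurons (CGNs). The tables list 14 Slc16 genes among 55341 symbols, and all 9 genes described here were among the 16729 genes that passed the filter on low counts.

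RNA-seq was performed on 6 libraries. In 3 of them the CGN cultures had received the vehicle DMSO, and in the other 3 they had received GSK-126, an inhibitor of EZH2, the enzyme that places the repressive mark H3K27me3 as part of Polycomb repressive complex 2. Per the study's methods the cells of both groups were granule neuron progenitors isolated on a density gradient from the cerebella of CD1-IGS mouse pups, pooled over litters for each biological replicate and given cytosine arabinoside to stop the division of other cells, and the drug or the vehicle was added at DIV3 (day in vitro) with RNA taken at DIV5. The labels name cerebellar tissue and DIV3 and give neither a dose nor the sex of the animals. Nothing in the design separates direct targets of EZH2 from later effects of the inhibitor.

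Counts on genes ranged from 7407189 to 13092763 per library. The granule neuron markers fixed for this work, 9 genes such as Neurod1, Zic1, Rbfox3 and Gabra6, were all detected, with summed levels of 3172 to 5133 CPM (each gene's counts relative to the library total, as scaled by TMM factors) with DMSO and 2512 to 3868 CPM with GSK-126. Markers of other cells were present beside them. Astroglial markers summed to 2359 to 7816 CPM over the 6 libraries and fibroblast and meningeal markers to 7243 to 10228 CPM, so the libraries hold RNA of a mixed culture. In such bulk samples fewer cells of a type and less RNA per cell cannot be told apart. Replicate 2 of both groups stood apart from the other libraries. It had the highest granule neuron sums (5133 and 3868 CPM) and the lowest astroglial sums (2538 and 2359 CPM). Values without it are therefore given beside the larger differences of the 9 transporter genes and of the related genes. Libraries with the same replicate number varied together, and each GSK-126 library is also set against the DMSO library of its number, called a pair. The genes were chosen by their membership of the family and selected on the difference in CPM between GSK-126 and DMSO in these same libraries, paired by replicate number, with that of Slc16a11 already known, so the values of all 9 in that comparison are given as a description with standard errors and without p-values.

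Slc16a11 encodes MCT11, a transporter of the pyruvate type that is best known from work on lipid metabolism in liver cells. It lies on chromosome 11 of GRCm38 (70212752 to 70216417, plus strand) and is the gene of the family with the largest difference in these cultures. With DMSO its level was 6.58, 15.2 and 4.69 CPM in replicates 1, 2 and 3, and with GSK-126 it was 1.59, 4.09 and 1.07 CPM. Every GSK-126 library was below every DMSO library, and in both groups replicate 2 was the highest and replicate 3 the lowest.

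The same order stood in the raw reads behind these levels. Slc16a11 had 57, 163 and 54 counts with DMSO and 21, 38 and 8 counts with GSK-126. The exact Poisson 95% intervals, which cover counting error only, were 4.98 to 8.52, 13.0 to 17.7 and 3.53 to 6.12 CPM with DMSO and 0.985 to 2.43, 2.90 to 5.62 and 0.461 to 2.11 CPM with GSK-126. The interval of the highest GSK-126 library thus overlapped those of the DMSO libraries of replicates 1 and 3, while within each pair the intervals were apart.

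Within pairs the difference of Slc16a11 was nearly constant. The GSK-126 library held 24.2%, 26.9% and 22.8% of the level of its DMSO library in pairs 1, 2 and 3. On the log2 scale these differences were -2.05, -1.89 and -2.13 (SD 0.12, n = 3 pairs). The DMSO libraries differed among themselves by more than these pair differences did. The log2 fold change was -1.96 with a standard error of 0.60 in the fit without the replicate block and -1.99 with a standard error of 0.27 in the fit with it. Leaving out 1 library at a time without the block moved it from -2.66 (without GSK-126 replicate 2) to -1.31 (without DMSO replicate 2), and it stayed between -2.07 and -1.95 when 1 pair at a time was left out of the block fit (-2.07 without pair 2).

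The sequence just before the start of Slc16a11 is shown because the factors of the ZIC family, abundant in CGNs and central to the study, bind sites with the core CAGCAGG, and a single copy of that string stands there. The 30 bases around it, at chr11:70213853-70213882 of GRCm38 on the plus strand, are taken from the RefSeq promoter window of the gene, and the capitals mark the string.
Slc16a11 upstream: tcttgcgtgcgCAGCAGGtgcgtgggtgtg
The string ends 39 bases before the RefSeq start of the gene at 70213910, and GENCODE also holds a transcript, Slc16a11-205, that starts earlier, at 70212752, and has an exon over this place. Windows of 250 bases before the RefSeq start could be matched for 6 of the 9 genes (Slc16a1, Slc16a3, Slc16a9, Slc16a10, Slc16a11 and Slc16a14). Of these, 1 held CAGCAGG on either strand, and 8.44% of all 32851 windows did. The windows also differed in their number of CG dinucleotides, the feature of promoters on which Polycomb complexes are known to gather. Slc16a1 had 37, Slc16a3 had 29, Slc16a10 had 21, Slc16a9 had 18, Slc16a11 had 14 and Slc16a14 had 11, against a median of 6 over all windows (quartiles 2 and 16). The window of Slc16a11 was therefore within the middle range of all windows and that of Slc16a1 far above it. A string in a sequence is a description and does not show binding.

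**Figure D1:**
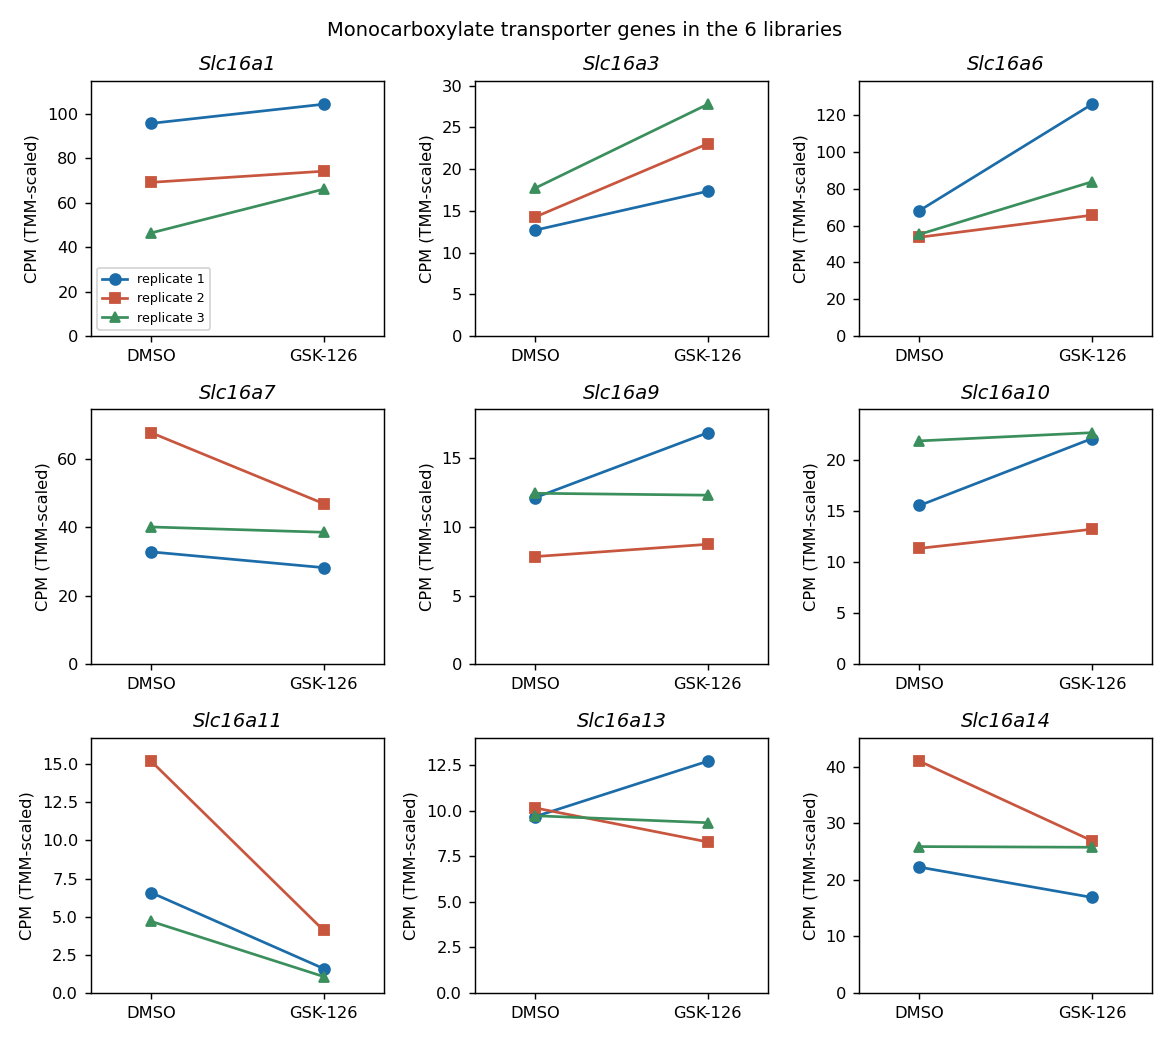
Level of each of the 9 genes in CPM (vertical axes, each starting at 0) with DMSO and with GSK-126, with a line joining the libraries of the same replicate number. For Slc16a11 all 3 lines slope down steeply and the groups do not overlap, and for the other 8 genes the groups overlap.

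Of the 9 genes, 1 had groups that did not overlap, Slc16a11, and 9.44% of all tested genes had such groups (4.72% lower and 4.72% higher with GSK-126). In the edgeR fit without the block 0 of the 9 genes were called at an adjusted p under 0.05, as were 0.0% of all tested genes, and 3 of the 9 had an unadjusted p under 0.05 beside 3.98% of all tested genes. DESeq2 without the block called 0 of the 9, beside 0.148% of the genes to which it gave an adjusted p. With the block edgeR called 3 of the 9, Slc16a11 lower and Slc16a3 and Slc16a6 higher, beside 8.44% of all tested genes (3.35% higher and 5.09% lower). DESeq2 with the block called 1 of the 9, Slc16a6, beside 8.8% of its genes, and gave no adjusted p to Slc16a9, Slc16a11 and Slc16a13, whose counts were low. Since the genes were picked with this contrast in view, nothing is read from these shares. The median log2 fold change of the 9 genes was 0.22, with -0.01 over all tested genes.

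Among the carriers of lactate and pyruvate, Slc16a3 encodes MCT4, which is known for the export of lactate from glycolytic cells such as astrocytes. Its level was 12.7, 14.3 and 17.7 CPM in DMSO replicates 1, 2 and 3 and 17.4, 23.0 and 27.8 CPM in the GSK-126 replicates. The GSK-126 library was higher in every pair, and the groups overlapped because the lowest GSK-126 library was just below the highest DMSO library. The log2 differences of the pairs were 0.45, 0.69 and 0.65, with a log2 fold change of 0.60 in both fits (standard error 0.23 without and 0.15 with the block). Its block call was lost when pair 2 or pair 3 was left out, and in DESeq2 with the block. Without pair 2 its log2 fold change was 0.56. Markers that stood higher with GSK-126 alongside it were those of microglia and macrophages, whose summed level was 123%, 141% and 117% of DMSO in pairs 1, 2 and 3, and those of endothelium and pericytes, at 132%, 106% and 117%. Of the 9 microglial markers 4 were higher in all pairs, 2 were called higher with the block and Trem2 was listed at 0 in every library. Of the 8 endothelial and pericyte markers 3 were higher in all pairs, Flt1, Pdgfrb and Rgs5, and 1 was called. The endothelial markers Cdh5 and Kdr were higher in pair 1 and lower in pairs 2 and 3. The fibroblast and meningeal sum was at 122%, 105% and 107% of DMSO (4 of 7 markers higher in all pairs, 1 called), and the oligodendrocyte lineage sum at 102%, 116% and 114% (4 of 9 higher in all pairs, 1 called). The summed astroglial markers were at 105%, 92.9% and 98.7%. Of these 8 markers 4 were higher in all pairs, 4 were lower in all pairs and 1 was called higher with the block. The part of these cells in the level of Slc16a3 was not tested.

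Slc16a1 encodes MCT1, the most widely expressed lactate transporter, found in glia and in the endothelium of brain vessels. Its level was 95.7, 69.2 and 46.4 CPM in the DMSO libraries and 104, 74.2 and 66.1 CPM in the GSK-126 libraries. Its order over the replicate numbers, 1 above 2 above 3, was the same in both groups, and each GSK-126 library was somewhat above its partner. The log2 fold change was 0.22 with a standard error of 0.28 and, with the block, 0.24 with a standard error of 0.10. It was -0.01 without DMSO replicate 3 and 0.52 without DMSO replicate 1. Slc16a7 encodes MCT2, the high-affinity transporter of neurons. It went the other way in each pair, from 32.9, 67.7 and 40.2 CPM with DMSO to 28.3, 47.0 and 38.6 CPM with GSK-126. The difference was visible mainly in pair 2, where the DMSO library was far above all the others. Slc16a7 had a log2 fold change of -0.31 with a standard error of 0.29 and -0.28 with a standard error of 0.11 with the block, and it was 0.05 without DMSO replicate 2. Exons of Slc16a7 share 179 bp with Gm47862 on the opposite strand. Slc16a13, a lactate transporter of the liver and the neighbour of Slc16a11, stood at 9.69, 10.2 and 9.73 CPM in DMSO libraries and at 12.7, 8.29 and 9.35 CPM after GSK-126. The pairs of Slc16a13 differed in direction, and its log2 fold change was 0.04 with a standard error of 0.22.

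Slc16a6 encodes MCT7, which has been linked to the release of ketone bodies. Replicates 1, 2 and 3 held 68.2, 53.7 and 55.3 CPM with DMSO and 126, 65.7 and 83.9 CPM after GSK-126. The GSK-126 library was higher in each pair, most in pair 1 and least in pair 2, and the lowest GSK-126 library fell below the highest DMSO library. The log2 fold change of Slc16a6 was 0.64 with a standard error of 0.24 and 0.60 with a standard error of 0.10 with the block. It was 0.36 without GSK-126 replicate 1, and in the block fit 0.46 without pair 1 and 0.75 without pair 2. Exons of Slc16a6 share 1052 bp, which is 21.5% of their length, with Amz2 on the opposite strand, and 48 bp with Arsg. As the strand setting of the counting is not given in the sources used here, it is not known how reads of this stretch were counted. Amz2 itself had a log2 fold change of 0.14 (standard error 0.08, adjusted p = 0.335, edgeR with the block and Benjamini-Hochberg adjustment).

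The genes with other or unsettled substrates showed small differences. Slc16a10 encodes MCT10, a carrier of aromatic amino acids and thyroid hormone, and stood at 15.6, 11.4 and 21.9 CPM in DMSO libraries and at 22.1, 13.2 and 22.7 CPM after GSK-126. Slc16a9 encodes MCT9, a carnitine transporter, and stood at 12.1, 7.83 and 12.4 CPM in DMSO libraries and at 16.8, 8.72 and 12.3 CPM after GSK-126. For both genes replicate 2 was the lowest of either group, and pair 1 differed most. The log2 fold changes were 0.25 (standard error 0.30) for Slc16a10 and 0.23 (standard error 0.30) for Slc16a9. That of Slc16a10 was 0.05 without DMSO replicate 2 and 0.53 without DMSO replicate 3, and that of Slc16a9 was -0.03 without GSK-126 replicate 1. Exons of Slc16a9 share 491 bp with Gm7097 and 419 bp with Gm9877 on the opposite strand. Slc16a14, an orphan transporter expressed in neurons, stood at 22.3, 41.0 and 25.9 CPM in DMSO libraries and at 16.9, 26.9 and 25.8 CPM after GSK-126. As for Slc16a7, its highest library was DMSO replicate 2 and pair 3 hardly differed. Slc16a14 had a log2 fold change of -0.36 (standard error 0.28), which was -0.06 without DMSO replicate 2. With the block it was -0.34 (standard error 0.14), and leaving out pair 1, 2 or 3 gave -0.30, -0.20 and -0.51.

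**Figure D2:**
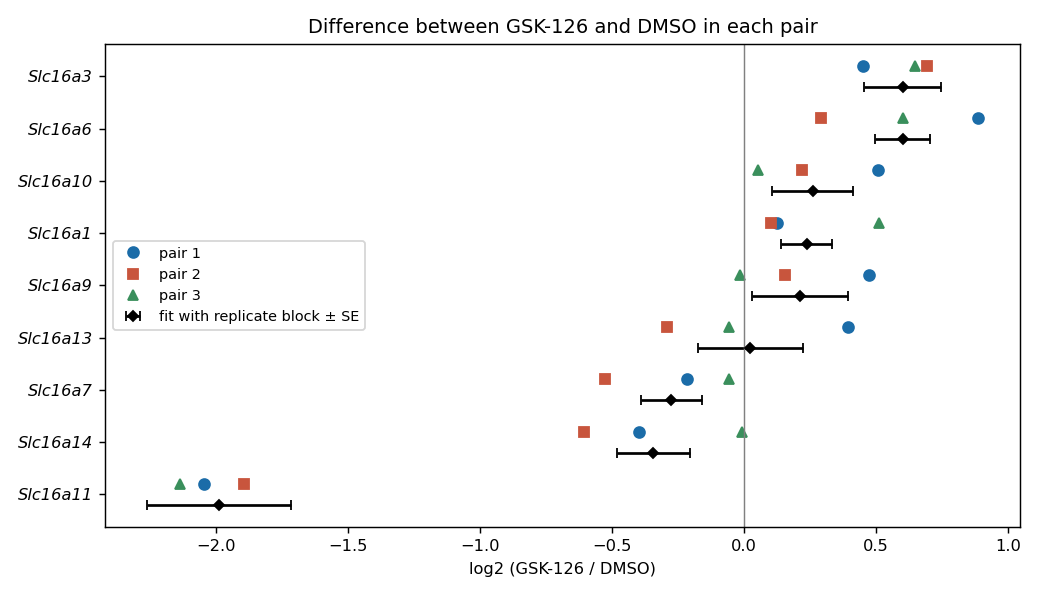
Log2 ratio of GSK-126 to DMSO (horizontal axis) for each gene in each of the 3 pairs (coloured points) and the estimate of the fit with the replicate block with its standard error (black diamonds and bars). The pairs of Slc16a11 lie between -2.13 and -1.89, and the pair ratios of the other genes lie between -0.61 and 0.89.

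Of the 9 genes, 7 differed in the same direction in all 3 pairs, all but Slc16a9 and Slc16a13. Over all tested genes 19.5% were higher and 22.8% were lower with GSK-126 in every pair. The summed level of granule neuron markers was lower with GSK-126 as well, at 79.2%, 75.4% and 74.9% of DMSO in pairs 1, 2 and 3. Of these 9 markers 8 were lower in every pair and 6 were called lower with the block, while Tubb3 was called higher. Gabra6, a receptor subunit of mature granule neurons, stood at 75.7, 216 and 84.1 CPM in DMSO libraries and at 35.6, 78.7 and 43.0 CPM after GSK-126. Its replicate 2 was the highest of each group, as for Slc16a11. Cbln3 went from 83.6, 226 and 88.7 CPM with DMSO to 47.4, 113 and 48.6 CPM with GSK-126. Etv1 went from 107, 340 and 159 CPM to 58.4, 122 and 72.4 CPM. Gabra6, Cbln3 and Etv1 thus fell more than the granule neuron sum in each pair, while Pax6, Zic1 and Zic2 fell less. Markers of interneurons and Purkinje cells summed to 84.0%, 81.8% and 66.1% of DMSO. Of these 6 markers 4 were lower in every pair and 3 were called lower with the block. Pvalb and Calb1 differed in direction between the pairs. The level of Slc16a11 relative to DMSO was thus below that of the summed markers in each pair, and the part of the share or maturity of granule neurons in its level was not tested.

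Compared per length of exon, Slc16a1 and Slc16a6 were the most abundant of the 9 genes. With DMSO the mean levels per kb of exon (CPM per kb, that is RPKM on the TMM scale) were 15.9 for Slc16a1, 12.1 for Slc16a6 and 8.87 for Slc16a14. The remaining 6 genes lay close together, from 3.96 for Slc16a7 down to 2.21 for Slc16a10. Slc16a11 stood within this lower set at 3.45 ± 2.19 CPM per kb (SD, n = 3). Only Slc16a14 and Slc16a7 were neighbours in this order whose libraries did not overlap. With GSK-126 Slc16a6 and Slc16a1 were again highest, at 18.8 and 18.4 CPM per kb. Slc16a11 was last, at 0.881 ± 0.633 CPM per kb (SD, n = 3), and its libraries did not overlap those of the next gene up, Slc16a10, at 2.63 ± 0.721 CPM per kb (SD, n = 3). The libraries of Slc16a1 and Slc16a14 were apart too, and all other neighbours in the order overlapped. The sum over the 9 genes was 58.9, 60.7 and 48.0 CPM per kb with DMSO and 73.0, 55.4 and 58.6 CPM per kb with GSK-126, so the groups overlapped. Slc16a11 made up 4.37%, 9.80% and 3.83% of the sum with DMSO and 0.854%, 2.89% and 0.714% with GSK-126. Its level at the mean of the DMSO libraries was at the percentile 34.3 of all tested genes per length, and at the mean of the GSK-126 libraries it was at 10.8.

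**Figure D3:**
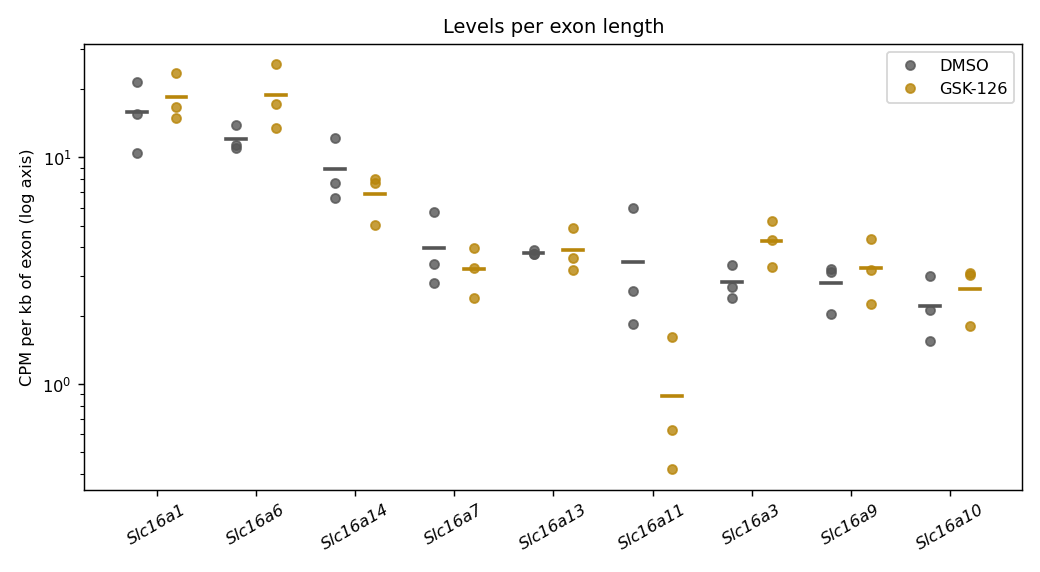
Level per kb of exon (vertical log axis, CPM per kb) of the 9 genes in each DMSO and GSK-126 library (points) with the group means (bars), ordered by the mean with DMSO. Slc16a1 and Slc16a6 are highest, and Slc16a11 goes from a mean of 3.45 to a mean of 0.881.

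Most of the genes differed between the replicate numbers. The choice of the genes used the numbers to form the pairs, and the mean level of a number drops out of a difference within a pair. The scatter of those differences is, however, the residual spread of the test below. Its calls are therefore not fully separate from the choice. A difference between the 3 numbers was tested over both groups together with edgeR's F test with the group in the model and Benjamini-Hochberg adjustment over all tested genes, of which 31.4% were called. Of the 9 genes 8 were called, all but Slc16a13 (adjusted p = 0.587). Slc16a11 had the widest difference of the family. The mean of its DMSO and GSK-126 libraries was 4.08, 9.64 and 2.88 CPM for numbers 1, 2 and 3, a ratio of 3.35 between highest and lowest (adjusted p = 0.000526, edgeR). For the other 8 genes this ratio ranged from 1.22 for Slc16a13 to 1.87 for Slc16a7.

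The genes were highest in different numbers. Slc16a7, with means of 30.6, 57.3 and 39.4 CPM (adjusted p = 0.000164, edgeR), and Slc16a14, with means of 19.6, 34.0 and 25.8 CPM (adjusted p = 0.00409, edgeR), were highest in number 2, like Slc16a11. Slc16a1, with means of 100.1, 71.7 and 56.3 CPM (adjusted p = 4.38e-05, edgeR), and Slc16a6, with means of 97.1, 59.7 and 69.6 CPM (adjusted p = 0.00101, edgeR), were highest in number 1. Slc16a10, with means of 18.9, 12.3 and 22.3 CPM (adjusted p = 0.00426, edgeR), and Slc16a9, with means of 14.5, 8.28 and 12.4 CPM (adjusted p = 0.0234, edgeR), were lowest in number 2. Slc16a3 was highest in number 3, with means of 15.0, 18.7 and 22.8 CPM (adjusted p = 0.0444, edgeR). The call of Slc16a3 was lost in 8 of the 11 alternative fits. Without DMSO replicate 2 the calls of Slc16a9, Slc16a11 and Slc16a14 were lost (for Slc16a11 at an adjusted p = 0.0525, edgeR), without GSK-126 replicate 1 those of Slc16a6 and Slc16a9, and without GSK-126 replicate 2 that of Slc16a9. DESeq2 lost the calls of Slc16a3 and Slc16a9. The marker sums differed between the numbers too. The mean sum of granule neuron markers was 2842, 4500 and 3167 CPM for numbers 1, 2 and 3, and that of astroglial markers was 7640, 2448 and 4172 CPM. Slc16a7 and Slc16a14 stood in the order of the granule neuron sum, number 2 above 3 above 1, while Slc16a11 was lower in number 3 than in number 1. Slc16a6 and Slc16a9 stood in the order of the astroglial sum, number 1 above 3 above 2, and the part of cell makeup in these differences was not tested.

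**Figure D4:**
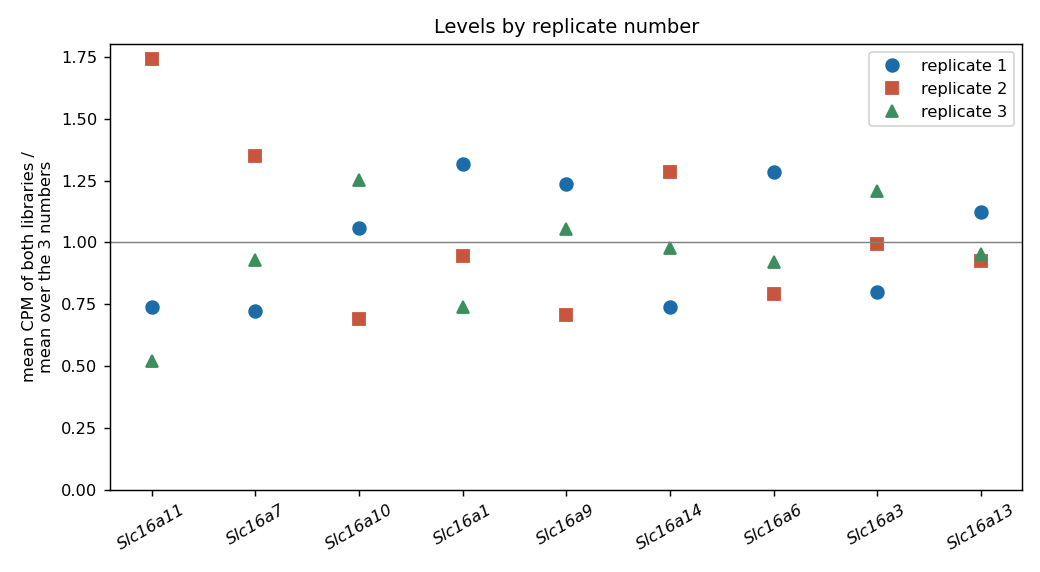
Mean CPM of the DMSO and GSK-126 libraries of each replicate number, divided by the mean over the 3 numbers (vertical axis, starting at 0), for the 9 genes ordered by the ratio of highest to lowest number. Slc16a11, Slc16a7 and Slc16a14 are highest in replicate 2, and Slc16a13 varies least.

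Over the 6 libraries the levels of Slc16a7 and Slc16a14 ran most closely together of the 36 pairs of genes (Pearson's r = 0.98 of log2 CPM), and those of Slc16a7 and Slc16a9 ran most strongly opposite (r = -0.93). These libraries share the 2 groups and the 3 numbers, so the values describe these libraries only. No stretch of 31 bases was shared between the exons of any of the 36 pairs, which bears on how far reads of 1 gene could be counted for another. The genes with levels most like those of Slc16a11, among 15383 genes, were Otub1 (r = 0.996), a deubiquitinase gene, Smc1a (r = 0.996), a cohesin subunit, Iqcg (r = 0.994), Gm23865 (r = 0.993) and D430040D24Rik (r = 0.992). Their own log2 fold changes with the block ranged from -0.51 to -0.17, far smaller than that of Slc16a11. The family members most like Slc16a11 were Slc16a14 and Slc16a7, both at r = 0.68.

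The neighbourhood of Slc16a11 on chromosome 11 did not show a common difference. Slc16a13 lies 371 bp beyond its end on the opposite strand (70216789 to 70221064), the exons of the pair do not overlap, and the values of Slc16a13 given above hardly differed between the groups. The next tested genes were 0610010K14Rik (18788 bp) and Gm12312 (141720 bp) beyond the end of Slc16a11, and Clec10a (41917 bp), Mgl2 (75201 bp) and Dlg4 (165229 bp) before Slc16a11. Of these 6 genes Dlg4, which encodes the postsynaptic scaffold PSD-95, was the single one called with the block, with a log2 fold change of -0.42 (standard error 0.07, adjusted p = 0.000786, edgeR). Clec10a, a lectin gene of macrophages, stood at 0.666 ± 0.234 and 1.49 ± 0.142 CPM with DMSO and GSK-126 (SD, n = 3 each), with a log2 fold change of 1.17 (standard error 0.55, adjusted p = 0.227, edgeR with the block). Clec10a, Mgl2, 0610010K14Rik and Gm12312 had between 3 and 26 counts per library, so their values rest on few reads.

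The genes around the transporters were read from lists of lactate and pyruvate handling, ketone body handling, thyroid hormone and aromatic amino acid handling, carnitine and creatine handling, and the other Slc16 genes. The lists were chosen with earlier results of these data known, so the calls and p-values of their genes are given as a description. These lists held 58 genes, of which 51 were tested. Without the block 0 were called and 2 had an unadjusted p under 0.05 (edgeR), and DESeq2 without the block also called 0. With the block 2 were called higher and 3 lower, beside the 3.35% and 5.09% of all tested genes given above, and the median log2 fold change of the 51 genes was 0.01, with -0.01 over all tested genes. DESeq2 with the block called 4.

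Among the 20 tested genes of lactate and pyruvate handling 2 rose and 2 fell with the block. Ldha, the lactate dehydrogenase subunit that favours the making of lactate, rose from 378 ± 56.8 to 462 ± 53.6 CPM (SD, n = 3; log2 fold change 0.29, standard error 0.07, adjusted p = 0.0107, edgeR with the block). Pdp2, a phosphatase that switches on pyruvate dehydrogenase, rose from 15.0 ± 2.93 to 24.8 ± 4.65 CPM (SD, n = 3; 0.73, standard error 0.14, adjusted p = 0.00223, edgeR with the block). The kinase Pdk2, which switches the same enzyme off, fell by 0.29 (standard error 0.08, adjusted p = 0.0309, edgeR with the block), a call that was lost with library totals, with upper-quartile normalization, with DESeq2 and without any 1 of the pairs. Nptn, which encodes neuroplastin, a partner protein that brings MCT2 to the membrane in some cells, fell by 0.31 (standard error 0.07, adjusted p = 0.00986, edgeR with the block). Without pair 2 the calls of Ldha (adjusted p = 0.0544, edgeR) and Nptn (adjusted p = 0.0720, edgeR) were lost. Leaving out pair 3 lost that of Ldha (adjusted p = 0.0613, edgeR). Pdp2 was still called without pair 2, with a log2 fold change of 0.73.

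The other core genes of this pathway did not pass the test. Bsg, the basigin subunit that carries MCT1 and MCT4 to the membrane, stood at 471 ± 21.5 CPM in DMSO libraries and at 475 ± 38.3 CPM after GSK-126 (SD, n = 3 each), and Emb, embigin, had a log2 fold change of -0.02 (standard error 0.15). Ldhb, the other lactate dehydrogenase subunit, had a log2 fold change of 0.09 (standard error 0.08). The mitochondrial pyruvate carrier genes Mpc1 and Mpc2 had 0.06 (standard error 0.09) and -0.08 (standard error 0.10). All these values are from the fit with the block.

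Of the other lists, ketone body handling had 0 of 5 tested genes called, thyroid hormone and aromatic amino acid handling 0 of 10 and the other Slc16 genes 0 of 5. Of the 11 tested genes of carnitine and creatine handling 1 was called, Ckmt1, a mitochondrial creatine kinase. Ckmt1 went from 39.0 ± 8.94 to 24.5 ± 5.77 CPM (SD, n = 3 each). It fell by 0.68 on the log2 scale (standard error 0.12, adjusted p = 0.00103, edgeR with the block). Without pair 2 its log2 fold change was -0.65, and it was still called.

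**Figure D5:**
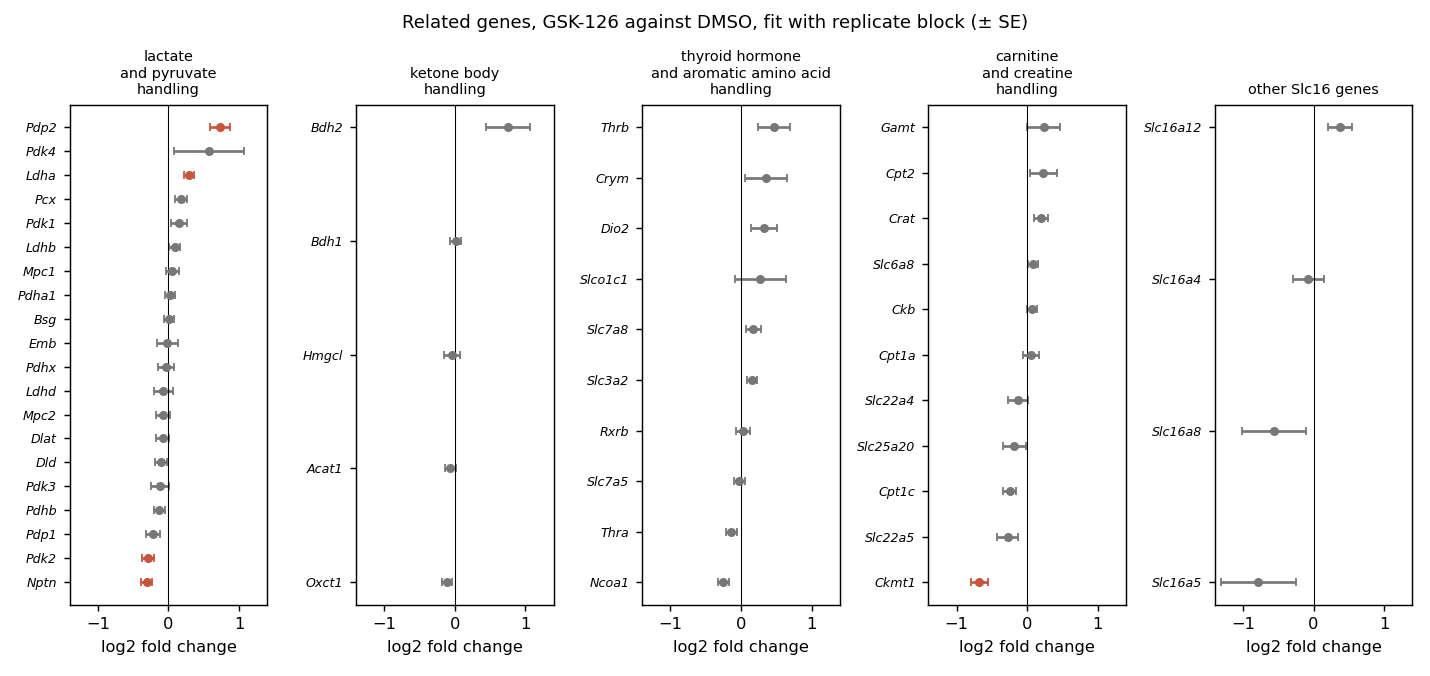
Log2 fold change with standard error (horizontal axes) of the tested related genes in the fit with the replicate block, in 5 panels by list, with called genes in red and 1 gene that was not called left out. Of the 51 genes 5 are called, 2 higher and 3 lower.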

How the data were processed

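RNA of 6 mouse CGN libraries (3 with DMSO and 3 with GSK-126) was sequenced as polyA-selected paired-end reads. The authors used Trimmomatic 0.38 for trimming, STAR 2.7.2b for alignment to GRCm38.p4 and HTSeq for counting over exons, and the deposited values are raw counts per gene of each library. The strand setting and the Gencode release are not given in the sources used here. All 55341 symbols matched GENCODE M21, which gave identifiers, coordinates, overlaps and exon lengths. Lines that name no gene held 58.7% to 60.7% of the reads listed and were left out. Among these lines, the one for reads on no feature held 45.3% to 46.6% of the reads listed.

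Counts were normalized and tested here in R 4.3.3 with edgeR 4.0.16 (TMM, filterByExpr, estimateDisp, glmQLFit and glmQLFTest for the group, without a block). Genes were called at a Benjamini-Hochberg adjusted p under 0.05 over the 16729 tested genes. DESeq2 1.42.0, the replicate number as a block, library totals, upper-quartile normalization, other filters and each library or pair left out were alternatives, and the block with other scalings or filters was added after seeing the data. The fits were tested on simulated data. The same replicate numbers in both groups come from the labels. The group mean was taken off each gene's log2 CPM. Libraries of the same number then correlated across genes at 0.562, 0.634 and 0.487 and other libraries at 0.00638 or less. As these deviations cancel within a group, low values between other libraries follow from high ones at the same number. The pairing is therefore read from the values at the same number alone. P-values of the group without the block measure the spread between the libraries of a group. With the block they measure the spread of the differences within pairs, from which the mean level of each replicate number is removed. Neither the labels nor the study's methods say that libraries of the same number came from the same culture. The biological coefficient of variation was 24.0% without and 9.74% with the block. No library was a copy of another.

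The 9 genes and the lists were chosen with earlier results of these data known. Named are the 9 genes, the related genes that pass the block fit (up to 8 per list by smallest p), Bsg, Emb, Ldha, Ldhb, Mpc1 and Mpc2, the 3 tested genes nearest to Slc16a11 on each side, the 5 genes with a mean log2 CPM over 1 most correlated with Slc16a11, and genes of the marker and overlap checks. Likeness is Pearson's r of log2 CPM with a prior count of 2. The result of 1 further gene of the rule is not reported here.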

Additional observations from a re-analysis of the deposited data

How the results depend on the processing

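Without the block edgeR called 0 genes between GSK-126 and DMSO, DESeq2 21 and edgeR with no filter 10, and 0 with library totals, upper-quartile normalization, at least 10 counts in every library or any library left out. With the replicate block edgeR called 1412 genes, 3 of the 9 transporter genes and 5 related genes, and DESeq2 with the block called 963, 1 and 4. The block with library totals gave 1421, 3 and 4, with upper-quartile normalization 1425, 3 and 4, with no filter 1611, 3 and 5, and with at least 10 counts in every library, where Slc16a11 itself is not tested, 1460, 2 and 5. The block fits without a pair called between 833 and 1277 genes, between 2 and 3 transporter genes and between 2 and 5 related genes: 1088, 3 and 5 without pair 1, 833, 2 and 2 without pair 2, and 1277, 3 and 3 without pair 3, where Slc16a14 took the place of Slc16a3. The replicate number called 3367 genes with DESeq2 in place of 5259, 4010 to 5120 genes with a library left out, and between 5 and 7 of the 9 transporter genes with a library left out in place of 8. The log2 fold change of Slc16a11 ranged from -2.66 to -1.31 with a library left out. Slc16a1, at -0.01 without DMSO replicate 3, Slc16a7, at 0.05 without DMSO replicate 2, Slc16a9, at -0.03 without GSK-126 replicate 1, and Slc16a13, from -0.15 to 0.19, changed sign with a library left out. The cause of these differences was not tested, beyond fewer libraries or genes where these were left out. With 8 to 163 counts per library Slc16a11 is the least deeply sampled of the 9 genes.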
